A study of Glycine max with 12 samples.

Results

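Roots and nodules of soybean plants that had received no nitrate were compared on 6 of the 12 arrays of the series, the 3 root control and the 3 nodule control arrays. The plants, Glycine max cv. Nourin No. 2, had been inoculated with Bradyrhizobium diazoefficiens USDA110 and grown hydroponically without nitrogen. All 6 control samples came from plants kept at 0 mM nitrate for the 24 h that started 19 days after planting. The other 6 samples, 3 of each organ, came from plants given 5 mM nitrate over the same time, and they serve below as a repeat of the organ comparison, in a fit of all 12 arrays and to link the slides. A root sample was the lower part of the root system, which bore no visible nodules, and a nodule sample held nodules over 3 mm across from the upper part. Each replicate pooled 3 plants, so that an array stands for a pool and not for 1 plant, and the roots and nodules were taken from the same control plants, although it is not stated whether a root pool and a nodule pool of the same number held the same plants. Position along the root system and age of the root differed together with the organ and cannot be told apart from it.

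A soybean nodule is an organ in which bacteria housed in infected cells reduce atmospheric dinitrogen to ammonium, fed by sucrose-derived malate from the host. Soybean exports most of this nitrogen as the ureides allantoin and allantoic acid, which are made by oxidation of newly synthesised purines. Roots take up nitrate, phosphate, other ions and water from the medium and carry growing tips with dividing cells, and part of the nitrate is reduced there by nitrate reductase and nitrite reductase before glutamine synthetase and glutamate synthase bind the ammonium.

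Each array carried 42748 probesets that are not controls, and its signals were scaled to an array mean of 2500, so the levels below are scaled signals of 1 probeset and are not compared between probesets. Before scaling, the array means were 2711 to 3352 for the control roots and 4113 to 4593 for the control nodules. Feature Extraction, the scanner software, marked 79.2 to 82.9% of the probesets of a root array and 83.0 to 84.5% of a nodule array as well above background. The control root arrays differed more from each other than the control nodule arrays did. The median over probesets of the SD of log2 signals was 0.394 in roots and 0.0746 in nodules, and array pairs correlated at r = 0.961 to 0.981 in roots, 0.996 to 0.997 in nodules and 0.755 to 0.803 between the organs (log2 signals of 31919 probesets above background throughout the 6 arrays). Root control 2 stood apart, with a 75th percentile of 1143 against 1423 and 1586 on the other control root arrays. The control roots and the control nodules were hybridised on separate slides. Differences given below with the slide as a block reach the slide of the control nodules through 1 nitrate array, nodule nitrate 3. The 8 control probes for the E1A spike-in RNA read 1.99 log2 units brighter in roots than in nodules after scaling, and whether equal amounts went into every sample is not stated in the sources used here. Scaling to them instead shifted the median difference of all probesets from -0.29 to -2.28 (log2, roots minus nodules), while scaling to the 75th percentile gave -0.12. Differences are therefore read against the median of all probesets, and where spike-in scaling reversed the sign of a group of genes this is said beside it.

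About as many probesets passed the threshold as did not, 18186 against 17960 (49.7%), and more of those that passed were higher in nodules. The test covered the 36146 probesets that were well above background throughout the 3 arrays of one organ or of both. Of these, 7381 (20.4%) were higher in roots and 10805 (29.9%) were higher in nodules at more than 2-fold (limma, adjusted p under 0.05). Above 4-fold the counts were 3995 (11.1%) in roots and 4833 (13.4%) in nodules. Above 16-fold the order was turned, with 1137 (3.15%) in roots and 964 (2.67%) in nodules. Which organ had more calls above 4-fold and 16-fold changed with the processing. Above 4-fold roots had more under 75th percentile scaling (4431 against 4141) and without root control 2 (4334 against 4129). Above 16-fold nodules had more with the slide as a block (1359 against 1181) and without root control 1 (1135 against 1107). Above 64-fold, 266 (0.736%) were higher in roots and 263 (0.728%) in nodules. The median fold of the called probesets was 4.39 for roots (interquartile range 2.77 to 9.73) and 3.63 for nodules (2.59 to 6.50). The 3 root and 3 nodule signals did not overlap for 27277 probesets (75.5%), among them 18157 of the 18186 called. For a single probeset 3 arrays against 3 cannot give an exact permutation p below 0.1, so the calls rest on the spread that limma estimates over all probesets. Fewer cells of a type and less RNA per cell cannot be told apart in these samples. Leaving out root control 2 changed the counts above 2-fold to 8118 and 9326, with 7168 and 9136 of the calls kept. Leaving out root control 1 gave 7403 and 12075. Spike-in scaling gave 2084 and 28135.

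**Figure D1:**
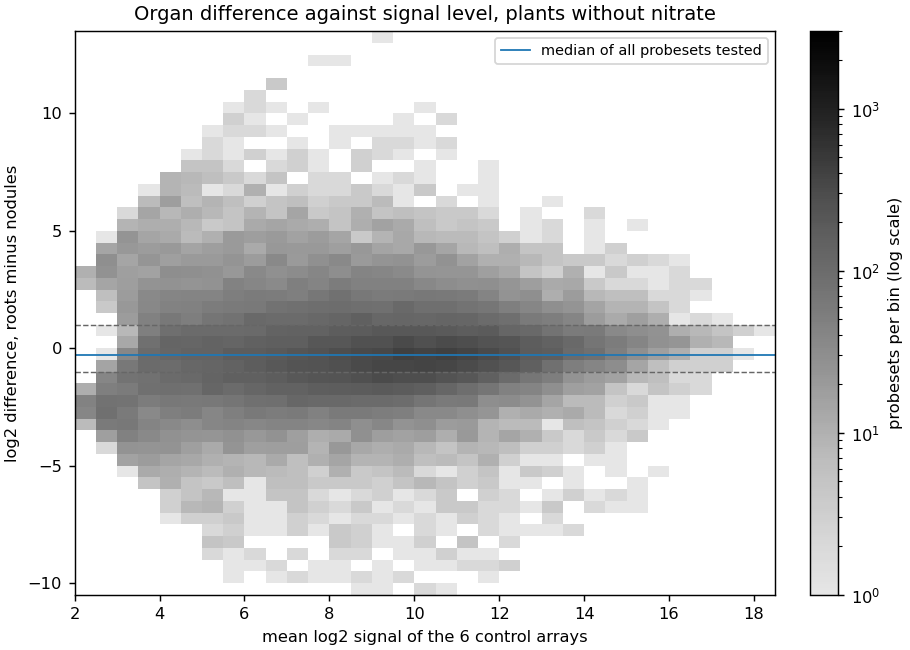
Log2 difference between organs (roots minus nodules, vertical axis) against the mean log2 signal of the 6 control arrays (horizontal axis), with the number of probesets per bin in grey on a log scale for the 36146 probesets tested. The blue line marks the median of -0.29 and the dashed lines mark 2-fold in either direction. Probesets lie beyond the dashed lines at all but the highest signal levels, with 7381 called higher in roots and 10805 in nodules.

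Part of the contrast was between signal and no clear signal. For 671 probesets every root array and no nodule array was well above background, and 664 of them were called higher in roots. For 1233 the reverse held, of which 1191 were called higher in nodules. A probeset enters these classes through the organ where it is bright, so the direction of the calls was fixed. The fold of such a probeset is a lower bound, in which each dim array takes the higher of its own signal and the lowest signal marked as well above background on that array. The bounds had a median of 6.83-fold for the first class (highest 796) and 2.65-fold for the second (highest 434), and 185 and 106 probesets exceeded 16-fold. Bounds exceeded 2-fold for 643 of the 671 probesets and 790 of the 1233. Many of the nodule calls here therefore pass 2-fold only on root signals that were not well above background. A further 451 probesets were above background on all root arrays and 1 or 2 nodule arrays, and 1872 on all nodule arrays and 1 or 2 root arrays, with 404 and 1111 called. Another 31919 probesets were well above background on all 6 arrays, and 6313 of these were higher in roots and 8503 in nodules. The remaining 6602 were not tested, and 4605 of them were above background on no control array.

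The scanner files give probesets by accession only. Descriptions were available for 2964 probesets, all of them from the study's tables of probesets that nitrate changed on these arrays, often naming the closest match in another species. The table of probesets that nitrate lowered in nodules was read in part, for 742 probesets, so fewer of these could be named and counted. The described probesets are not a random sample of the array. Of the described probesets 2914 were tested, and 35.9% were higher in roots and 32.1% in nodules, with a median difference of 0.06. The gene lists below are drawn from them, so their counts are to be read against these shares. Functions are named below for these probesets alone, so 169 of the 1137 probesets higher in roots above 16-fold and 130 of the 964 higher in nodules can be described. Leghemoglobin and uricase, the usual markers of a nodule, are not named in these descriptions, so the organ labels could not be checked on them. Among described genes, purine synthesis was higher in nodules. Of the genes taken as root markers, all 3 root-specific chalcone synthases were higher in roots, 1 of them with the slide as a block. The expansins went the other way, with 1 of 5 higher in roots and 3 in nodules. The peroxidases had 5 of 13 higher in roots and 4 in nodules, near the shares of all described probesets. Most of the 18 probesets named for nodulins or nodulation signalling were higher in roots, as given below. These are only the ones that nitrate changed. They include signalling factors and a family of membrane transporters, so they are a weak check on the nodule label. The study itself reports leghemoglobin much higher in nodules than in roots of control plants.

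The 2 probesets with the largest differences in favour of roots had no description. CX702968.1_831 gave 76752, 70248 and 48138 on root control arrays 1, 2 and 3 and 12.9, 1.79 and 13.9 on nodule control arrays 1, 2 and 3, and BM139761.1_320 gave 13807, 10429.5 and 14335 against 7.23, 1.6 and 1.75. The root signals lay above all nodule signals, which was a condition of the choice, and 2 and 1 of the nodule signals were well above background. The differences were 13.19 ± 0.78 (log2 ± SE, adjusted p = 2.1e-05) and 12.19 ± 0.57 (adjusted p = 1e-05). Since 1 and 2 of the nodule signals behind them were not well above background, the size and rank of these differences rest in part on signals below that limit. The differences changed to 12.22 without nodule control 2 and 12.90 without nodule control 1. Among described probesets a kexin-like serine endoprotease, a kind of enzyme that trims protein precursors, led with 45973, 58167 and 64439 in roots and 44, 71.3 and 57.8 in nodules (GMFL01-32-G23-R_526, 983-fold, adjusted p = 2.2e-06). An extensin-like protein, a structural glycoprotein of the cell wall, gave 19117, 15192 and 23570.4 and 51.8, 41.8 and 54.3 (BI426552.1_485, 388-fold, adjusted p = 2.3e-06). Both were picked among probesets whose organs did not overlap, so their separation was fixed by the choice.

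Several other described probesets with large root differences followed, of differing function. An aquaporin, a membrane channel for water, gave 14584, 12924 and 14996 in roots and 45.7, 63.8 and 50.1 in nodules (CD391559.1_401, 268-fold, adjusted p = 2.2e-06). A predicted transporter of the major facilitator superfamily gave 1319.8, 1042 and 1648 in roots and was not well above background on any nodule array, at least 172-fold (BI974666.1_464, adjusted p = 1.2e-05). Asparaginase BE658128.1_628, which splits asparagine into aspartate and ammonia, gave 419, 434 and 677 in roots and also lay below that limit on every nodule array, at least 65-fold (adjusted p = 3.1e-06). In each case the 3 root arrays agreed within 2-fold. Leucine-rich repeat proteins formed another pair. The DRT100-like AI443411.1_602 gave 4299.6, 2088 and 2972 against 21, 21.2 and 18.9 (147-fold, adjusted p = 6.1e-06) and AW598384.1_293 gave 7177, 4630.2 and 6612 against 67.9, 55.5 and 48.8 (106-fold, adjusted p = 4.8e-06). Proline-rich protein CA784637.1_592, another wall protein, was 97.5-fold higher in roots, major latex protein homologue GMFL01-45-K09-R_494 was 87.5-fold higher, and BQ785138.1_524, described only by an Arabidopsis clone, was 127-fold higher with 1 of 3 nodule arrays well above background (adjusted p = 3.1e-06, 6.6e-06 and 1.2e-05).

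The 2 probesets with the largest differences in favour of nodules had no description either. CO982359.1_617 gave 27388, 18768 and 31804 on nodule arrays 1, 2 and 3 against 47.8, 9.35 and 14 on root arrays, and GMFL01-11-H14-F_707 gave 11072, 13402 and 15566 against 29.9, 2.49 and 13.9. Root control 1 was the highest and root control 2 the lowest of the root signals for both. Their differences were -10.43 ± 0.59 and -10.35 ± 0.84 (adjusted p = 1.8e-05 and 7.5e-05), with 2 of 3 root arrays well above background. Without root control 1 they were -11.12 and -11.14, and the latter was -9.34 without root control 2. 

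The described probesets with large nodule differences included 3 transcription factors, an auxin-induced protein and a calcium pump. AW705644.1_442, an OCS-element binding factor of the bZIP class, gave 8006, 8153 and 8678 in nodules and 26.9, 2.76 and 15.1 in roots, with a difference of -9.64 ± 0.78 (adjusted p = 7.3e-05) that was -10.32 without root control 1 and -8.68 without root control 2. DREB2C, a factor known in Arabidopsis for binding dehydration-responsive elements, gave 1507, 1198 and 1457 in nodules and was not well above background on any root array, at least 151-fold (GMFL01-27-A03-R_412, adjusted p = 4.4e-06). A GATA-type factor gave 629, 535 and 700.4 under the same condition, at least 67.6-fold (BE823562.1_522, adjusted p = 1.2e-05). The nodule arrays lay within 1.5-fold of each other for all of these regulators. For the auxin-induced protein X15, a small protein of the SAUR family, the bound was 47.8-fold (AW160145.1_369, nodule signals 497, 378 and 445, adjusted p = 4.2e-05). For a calcium-transporting ATPase, which pumps calcium out of the cytosol, it was 26.2-fold (GMFL01-33-F21-F_447, nodule signals 239, 233 and 246, adjusted p = 2.2e-06).

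Enzymes of amino acid metabolism and a storage protein were also among them. Tyrosine aminotransferase BE823885.1_471, which starts the breakdown of tyrosine, gave 9186, 9949 and 7525 in nodules and 27.7, 9.6 and 38.8 in roots, 406-fold (adjusted p = 1.9e-05). A probeset described as cystathionine beta-synthase and related enzymes, a family of sulphur amino acid metabolism, gave 5058, 5416 and 6639.6 and 26.3, 6.99 and 14.2, 411-fold (CX708923.1_569, adjusted p = 1.4e-05). Both were well above background on 2 of the 3 root arrays. Vegetative storage protein GMFL01-41-F14-R_447, known in soybean leaves as a temporary nitrogen store, gave 8646, 7583 and 8815 and 50.9, 34.3 and 91.7, 153-fold (adjusted p = 1.1e-05). The difference of BE823885.1_471 was -8.66, or -8.07 without root control 2.

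**Figure D2:**
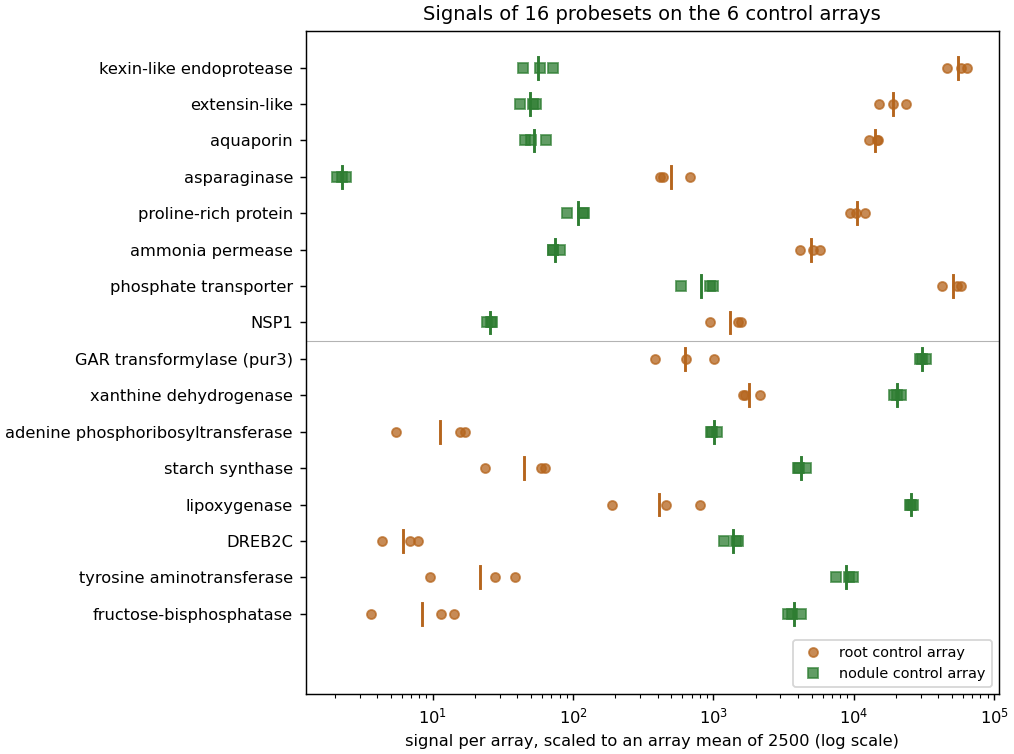
Signals of 16 named probesets on the 6 control arrays (horizontal log axis, scaled to an array mean of 2500), with a circle for each root array, a square for each nodule array and a vertical line at the mean of log2 signals. The 8 upper probesets were higher in roots and the 8 lower ones in nodules. No root point overlaps a nodule point of the same probeset, as at nearly all called probesets, and points are not comparable between probesets.

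Purine and ureide synthesis was higher in nodules at nearly every probeset. Of 15 tested probesets of 16, 13 were higher in nodules and none in roots. The median difference was -3.82, against -0.29 over all probesets and 0.06 over the described ones. All 10 probesets for enzymes of the purine pathway itself were among the 13 (median -3.99). Glycinamide ribonucleotide transformylase (pur3), an early one-carbon step of the pathway, gave 29622, 32660.4 and 30451 in nodules and 1010.2, 383 and 641 in roots (CX548867.1_764, -5.62 ± 0.34, adjusted p = 2.4e-05), and a second probeset of the same description differed by -5.29 ± 0.28 (GMFL01-31-H21-F_308, adjusted p = 1.5e-05). Nodule arrays agreed closely, while root control 2 was the lowest root array for both. The synthetase that adds aspartate to the aminoimidazole intermediate gave 22794, 24897 and 23471 and 1219, 828 and 925 (BI786025.1_395, -4.60 ± 0.19, adjusted p = 7.4e-06).

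The steps before and after moved in the same direction. Glycinamide ribonucleotide synthetase differed by -3.82 ± 0.18 and -3.86 ± 0.18 at its 2 probesets (BI942789.1_350 and CB556173.1_418), aminoimidazole ribonucleotide carboxylase by -4.13 ± 0.47 and -3.68 ± 0.38 (CA800081.1_324, with 2 of 3 root arrays above background, and CO982424.1_696), and the pur9 probesets, for the last enzyme of inosine monophosphate synthesis, by -4.25 ± 0.33, -2.83 ± 0.34 and -3.49 ± 0.26 (BQ296723.1_148, AI855838.1_207 and CX547899.1_935). The adjusted p values of these 7 ran from 9.9e-06 to 0.00042. Xanthine dehydrogenase BE823821.1_552, which makes the uric acid from which ureides come, gave 19219, 20466 and 21643 in nodules and 2159, 1612 and 1678 in roots (-3.50 ± 0.18, adjusted p = 1.2e-05). Adenine phosphoribosyltransferase BE658344.1_598, a salvage enzyme, gave 957, 1066 and 984 and 16.8, 5.42 and 15.5 (-6.48 ± 0.43, 2 root arrays above background, adjusted p = 3.4e-05). The nucleotidase AI960030.1_560, specific for inosine and guanosine monophosphate, differed less, by -1.44 ± 0.30 (adjusted p = 0.005). The exceptions were GMP synthase BF066473.1_82, on the branch towards guanine nucleotides, at -0.11 ± 0.23 (adjusted p = 0.69), and a xanthine or uracil transporter, BE473599.1_257, at 0.61 ± 0.31 (adjusted p = 0.13), and the organs overlapped at both.

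Nodulins by name were mostly higher in roots. Of 18 probesets described as nodulins, nodulin-like or nodulation signalling proteins, 12 were higher in roots and 3 in nodules, with a median of 2.34 (0.35 under spike-in scaling). NSP1, a transcription factor needed for nodule initiation in Medicago, gave 1496, 950.1 and 1568 in roots and 24.5, 26.2 and 26 in nodules (CX711851.1_705, 51.1-fold, adjusted p = 6.7e-06). The LjNOD21 homologue BU927494.1_285 gave 153, 41.6 and 77.4 in roots and was not well above background in nodules, at least 10.3-fold (adjusted p = 8e-05). Root control 2 was the lowest root array for both of these, and no nodule signal reached it. Nodulin-like BM891732.1_494 gave 10370.2, 10025 and 15554 and 36, 22.5 and 35.6 (383-fold, adjusted p = 4.3e-06), and the N21-like GMFL01-32-N23-R_308 gave 10329, 9410.3 and 15572 and 116, 63 and 117 (121-fold, adjusted p = 9.5e-06). MtN21 probeset BI969939.1_515, of a family of membrane transporters, was 26.3-fold higher in roots (adjusted p = 2.1e-05). 

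Within the list, members of one name ran both ways. Another MtN21 probeset, GMFL01-30-H05-R_473, was higher in nodules at -1.96, as were Nodulin-21 itself (AW203733.1_45, -1.35, adjusted p = 0.00025) and the nodule-enhanced malate dehydrogenase, which supplies malate (BI968929.1_166, -1.45). Early nodulin 40, a short RNA induced early in nodule formation, was higher in roots at 1.99 (BQ741901.1_501, adjusted p = 0.00016), and NSP2 differed by 0.88 and was not called (CX708617.1_668, adjusted p = 0.0073). The call of the Dg93 homologue GMFL01-43-N02-F_57 depended on the setting. Its signals were 180.5, 705 and 48.5 in roots and 25.8, 14.5 and 26.9 in nodules (root-nodule protein of Datisca, 3.09 ± 0.90, adjusted p = 0.021). Root control 2 was the highest root array, root control 3 the lowest, and the organs did not overlap. The call was lost with the slide as a block (adjusted p = 0.16), without root control 1 (0.052) and without nodule control 2 (0.063), and the difference was 2.12 without root control 2 and 4.05 without root control 3.

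Without nitrate in the medium, the enzymes that reduce nitrate gave higher signals in nodules than in roots. All 3 nitrate reductase probesets were higher in nodules (median -4.16), as were all 3 for nitrite reductase (median -4.23). The nitrate reductase INR1 gave 19776, 21778 and 21847 in nodules and 968, 3160.5 and 533 in roots (GMFL01-21-N18-R_440, -4.16 ± 0.60, adjusted p = 0.001), and BCNR-A gave 7539, 8164 and 8382 and 251, 907 and 123 (BU927103.1_508, -4.72 ± 0.67, adjusted p = 0.00091). Root control 2 was the highest root array for both, and the differences without it were -4.88 and -5.51, while that of BU927103.1_508 was -4.07 without root control 3. Ferredoxin-nitrite reductase, which turns nitrite into ammonium in plastids, gave 2032, 2263 and 1981 and 115, 96.7 and 123 (GMFL01-08-I05-R_317, -4.23 ± 0.17, adjusted p = 6.4e-06). At a second probeset, BG155089.1_555, no root array was well above background, which gave at least 10.2-fold (adjusted p = 6.7e-06).

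Transporters of nitrate and ammonium gave no common direction. NRT2, a high affinity nitrate transporter of the root surface, gave 3906, 5363 and 4042 in roots and 419, 146 and 129 in nodules (GMFL01-19-H08-R_500, 4.46 ± 0.45, adjusted p = 0.00021). Nodule control 1 was the highest nodule array and still far below the roots. The nitrate and chloride transporter CA852364.1_395 gave 179.7, 149.9 and 199 and 15, 8.93 and 8.72, with 1 nodule array above background (4.05 ± 0.26, adjusted p = 2.9e-05), but of the 6 probesets for nitrate and chloride transporters 2 were higher in roots and 3 in nodules (median -0.95). Ammonia permease BI498123.1_467, an ammonium transporter, gave 5094, 4173 and 5783 and 72.3, 71.3 and 80.3 (66.7-fold, adjusted p = 3.3e-06), and the ammonium transporter Amt1;2 homologue was higher in roots at 2.49 (GMFL01-22-A23-R_536). Over the whole list of nitrate uptake and reduction, 4 of 18 tested probesets were higher in roots and 11 in nodules, with a median of -1.43.

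Binding of ammonium differed by step. All 4 probesets of the plastid glutamine synthetase were higher in nodules (median -3.71). GMFL01-06-M21-R_347 gave 18656, 19498 and 19910.5 in nodules and 1052, 512 and 839.7 in roots (-4.66 ± 0.28, adjusted p = 2.1e-05), and GMFL01-14-D20-F_759 and GMFL01-36-I09-R_352 differed by -4.35 ± 0.31 and -3.08 ± 0.33 (adjusted p = 4.1e-05 and 0.00025). Of 4 NADH-dependent glutamate synthase probesets, the partner enzyme, 3 were higher in nodules (median -2.31). The cytosolic glutamine synthetase GSbeta1 differed by -0.75 and was not called above 2-fold (GMFL01-16-C01-R_584, adjusted p = 0.0052). Asparagine synthetase, which moves the amide nitrogen of glutamine to asparagine, had 2 of 8 probesets higher in nodules and none in roots (median -0.63), while all 4 asparaginase probesets were higher in roots (median 2.13, 0.14 under spike-in scaling). With the slide as a block 1 of these 4 remained called. In the list as a whole 6 of 34 probesets were higher in roots and 14 in nodules (median -0.73).

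In carbon metabolism, the large differences lay on starch and on hexose phosphates. All 3 fructose-1,6-bisphosphatase probesets, for the enzyme that returns carbon towards hexose phosphate, were higher in nodules. GMFL01-18-N12-R_21 gave 3684, 3393 and 4134 in nodules and 17.1, 14.6 and 25.1 in roots (202-fold, adjusted p = 3.9e-06), GMFL01-02-I21-R_101 gave 3627, 3407 and 4209.6 and 14.2, 3.61 and 11.5 (-8.80 ± 0.50, -8.19 without root control 2, adjusted p = 1.8e-05), and BM885259.1_449 differed by -6.29 ± 0.49 (adjusted p = 6.2e-05). The last 2 were well above background on 2 and 1 of the root arrays. Granule-bound starch synthase Ib, which makes amylose, gave 4558, 3995 and 4039.8 and 62.7, 23.7 and 58.8 (GMFL01-45-A22-R_308, 94.4-fold, adjusted p = 2e-05), and beta-amylase, which degrades starch, gave 2187, 1731 and 1101 and 39, 36.6 and 18.7 (GMFL01-21-F05-R_544, 53.9-fold, adjusted p = 3e-05). Glyceraldehyde 3-phosphate dehydrogenase CO978698.1_489 was 7.91-fold higher in nodules (adjusted p = 0.00016). Over 54 probesets of sugar and organic acid metabolism, 12 were higher in roots and 23 in nodules (median -0.51), and blocking on the slide gave 6 and 25.

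Of 28 tested probesets for ion and water transport 14 were higher in roots and 7 in nodules, where 35.9% and 32.1% of all described probesets were, with a median of 1.06 that was -0.92 under spike-in scaling. Phosphate transporters had 6 of 10 probesets higher in roots and none in nodules (median 1.26, -0.73 under spike-in scaling). The pt2 homologue BQ473454.1_259 gave 42719, 57704 and 54842 in roots and 995, 585 and 948 in nodules (62.6-fold, adjusted p = 8e-06), and GMFL01-26-C22-R_426 of the same description gave 131488, 182999 and 174270.0 and 3749.6, 2425 and 3542 (50.7-fold, adjusted p = 7.5e-06). For both, root control 1 was the lowest root array and nodule control 2 the lowest nodule array. Of 8 aquaporins 6 were higher in roots and 1 in nodules (median 2.23). GMFL01-46-J20-R_160, a plasma membrane intrinsic protein, gave 9159, 5159 and 10022 and 179, 180.1 and 230.0 (39.9-fold, adjusted p = 1.5e-05), whereas BM885167.1_466 gave 16.4, 9.33 and 21.3 in roots and 593, 715 and 687 in nodules (44.7-fold in favour of nodules with 2 of 3 root arrays above background, adjusted p = 1.8e-05). The purple acid phosphatase Pap3, of an enzyme class that frees phosphate from organic esters, was 40.1-fold higher in nodules (GMFL01-41-C15-R_491, 2 of 3 root arrays above background, adjusted p = 8.1e-05).

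Oxidative enzymes of the wall were mostly higher in roots. Of 38 peroxidases, laccases and copper proteins 20 were higher in roots and 7 in nodules, with a median of 1.56 that became -0.43 under spike-in scaling. Multicopper oxidases, the class of the laccases, had 8 of 9 probesets higher in roots and none in nodules (median 2.91), for example GMFL01-03-O17-R_407 with 9641, 4037 and 8645 in roots and 565, 488 and 351 in nodules (15.2-fold, adjusted p = 0.00015). The probesets described as peroxidase had 5 of 13 higher in roots (38.5%) and 4 in nodules (30.8%), near the 35.9% and 32.1% of all described probesets. FBP1 homologue CX548586.1_700 gave 6242, 2487 and 5056 and 137, 127 and 91.4 (36.7-fold, adjusted p = 4.2e-05), and peroxidase 1A homologue AI938069.1_163 was 33.5-fold higher in roots (adjusted p = 1.2e-05). For the LjRH101 homologue BI970840.1_579 the roots gave 957, 132 and 1179.5 and the nodules 20.1, 14 and 20.4, and the difference of 4.89 ± 0.80 (adjusted p = 0.0018) was 5.89 without root control 2, its lowest root array. In the other direction PsPOX11 homologue BU080933.1_141 gave 3074, 2793 and 2568 in nodules and 27.7, 8.14 and 33.3 in roots (-7.16 ± 0.52, 2 root arrays above background, -6.53 without root control 2, adjusted p = 4.6e-05), and AW101847.1_324 was at least 6.78-fold higher in nodules (adjusted p = 0.00038).

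Cell wall probesets showed no common direction. Of 44 tested, 13 were higher in roots (29.5%) and 15 in nodules (34.1%), near the 35.9% and 32.1% of all described probesets. The median of 0.06 fell below 0 without root control 1 (-0.08), without root control 3 (-0.11), with the slide as a block (-1.10) and under spike-in scaling (-1.92). All 4 xyloglucan transferases, which cut and rejoin the hemicellulose xyloglucan, were higher in nodules (median -2.95). BI970653.1_442 gave 152, 154 and 133 in nodules and 10.2, 2.25 and 11.8 in roots (-4.50 ± 0.61, 2 root arrays above background, -3.74 without root control 2, adjusted p = 0.00075). Of 5 expansins, which loosen walls, 3 were higher in nodules and 1 in roots, and BF068456.1_135 gave 4441, 4331 and 5244 and 279.9, 244 and 474 (14.6-fold, adjusted p = 4.2e-05). Proline-rich protein GMFL01-29-C07-R_220 was 19.9-fold higher in nodules (adjusted p = 1.2e-05), opposite to CA784637.1_592 above. Pectate lyase BF426188.1_388, which cleaves pectin, gave 186, 113 and 301 in roots and 8.62, 9.1 and 8.07 in nodules, 2 of these above background (21.5-fold, adjusted p = 6.4e-05).

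Defence-related probesets were more often higher in roots, 15 of 29 (51.7% against 35.9% of all described probesets), with 5 in nodules (17.2% against 32.1%). Their median was 1.31 (-0.68 under spike-in scaling). With the slide as a block the counts were 10 and 6 and the median was 0.43. A homologue of pathogenesis-related protein 1a gave 659.8, 885 and 459.7 in roots and 26.8, 15.1 and 12.4 in nodules (CD410755.1_344, 37.7-fold, adjusted p = 3.9e-05). The stress-induced gene H4 gave 42837, 53340.4 and 41307 and 2597, 1719 and 1805 (CA820651.1_162, 22.7-fold, adjusted p = 1.1e-05). Root and nodule arrays did not overlap at either, as at 18157 of the 18186 called probesets. Major latex protein 15 was 22.9-fold higher in roots (CA851827.1_519, adjusted p = 5.9e-06), and a thaumatin-like protein, of a family with antifungal members, 14.6-fold (CF921308.1_520, adjusted p = 1.2e-05). Lectin Le2 gave 58.4, 76.4 and 145 and 19.6, 1.67 and 1.93, where only nodule control 1 was above background (4.44 ± 0.95, adjusted p = 0.0058), and the difference was 5.59 without that array and 3.82 without nodule control 2.

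Lipoxygenases, which oxidise polyunsaturated fatty acids on the way to jasmonate and other oxylipins, were higher in nodules at 6 of 8 probesets and in roots at none (median -1.80). GMFL01-02-K07-R_668 gave 26572, 25536 and 25296 in nodules and 796, 191 and 461 in roots (62.6-fold, adjusted p = 7.6e-05), and CF809316.1_325 and BG156932.1_540 of the same description were 55.3-fold and 5.35-fold higher in nodules (adjusted p = 5.2e-05 and 0.00029). Lipoxygenase-1 differed by -1.93 ± 0.45 (CK768357.1_636, 1 root array above background, adjusted p = 0.0087). Root control 2 or 3 was the lowest root array at each of the 4. Vegetative storage protein 2 precursor CX701945.1_756 was higher in roots at 1.75 ± 0.36 (adjusted p = 0.0049), a sign that turned to -0.24 under spike-in scaling, and thus opposite to the storage protein probeset that was 153-fold higher in nodules (GMFL01-41-F14-R_447).

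In phenylpropanoid and isoflavonoid metabolism 13 of 34 probesets were higher in roots (38.2%, near the 35.9% of all described probesets). In nodules 6 were higher (17.6% against 32.1%). The median was 0.45 (-1.54 under spike-in scaling), and blocking on the slide gave 7 and 8. All 3 root-specific chalcone synthase homologues, at the entry to flavonoids, were higher in roots (median 2.30), as were all 3 daidzein methyltransferases of isoflavonoid synthesis (median 2.58), although 1 of the 3 chalcone synthases was called with the slide as a block. Phenylalanine ammonia-lyase AI495627.1_380, at the entry to the whole pathway, gave 675, 764 and 731 in nodules and 148, 33.6 and 88.7 in roots (-3.25 ± 0.51, -2.66 without root control 2, adjusted p = 0.0014). NADPH:P450 reductase AI496571.1_301, which supplies electrons to the P450 steps, was 9.33-fold higher in nodules, and chalcone isomerase 2 AW733840.1_557 6.9-fold (adjusted p = 0.00029 and 0.00038). Anthocyanidin reductase BM092813.1_412 and a flavonoid galactosyltransferase, GMFL01-33-A20-R_504, differed by -3.66 ± 0.56 and -3.13 ± 0.55 with 1 root array each above background (adjusted p = 0.0013 and 0.0023), and by -2.98 and -2.50 without root control 2. O-methyltransferase BI700339.1_357 gave 220.4, 603 and 101 in roots and 28, 17.8 and 19.2 in nodules (3.49 ± 0.62, adjusted p = 0.0025). Its difference was 2.81 without root control 2 and 4.10 without root control 3, and with the slide as a block it was 1.71 and not called (adjusted p = 0.34).

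In the list of triterpenoids and sterols 3 of 13 probesets were higher in roots and 7 in nodules, with a median of -1.64 that moved to -0.88 without root control 2. The list also took in ent-kaurenoic acid oxidase and a cis-prenyltransferase, so these counts are not of triterpenoid and sterol genes alone. Beta-amyrin synthase, which forms the skeleton of soybean saponins, had 4 of 5 probesets higher in nodules and 1 in roots, and all 5 carry the same description. BE820847.1_401 gave 53.6, 44 and 43.5 in nodules and 4.34, 12.4 and 23.4 in roots (-2.12 ± 0.57, 1 root array above background, adjusted p = 0.015, -1.46 without root control 1), whereas BI498434.1_344 gave 31, 16.4 and 20.8 in roots and lay below the background limit in nodules, at least 2.87-fold (adjusted p = 0.00018). Ent-kaurenoic acid oxidase, of gibberellin synthesis, was higher in nodules at both probesets, by -3.84 ± 0.38 (BE657386.1_545) and -2.60 ± 0.52 (BU761462.1_543, -1.97 without root control 2), with adjusted p = 0.00018 and 0.0042. Cis-prenyltransferase BU548770.1_591 was at least 4.15-fold higher in roots (adjusted p = 0.00019), and the sterol isomerase AW569433.1_472 4.42-fold (adjusted p = 0.00023).

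Of 35 hormone-related probesets 13 were higher in roots (37.1%) and 12 in nodules (34.3%), near the 35.9% and 32.1% of all described probesets. Their median was 0.52 (-0.16 with the slide as a block, -1.47 under spike-in scaling). Ethylene synthesis ran both ways by step. ACC synthase GMFL01-17-O11-R_475, which makes the precursor, gave 2604, 2366 and 3510.2 in nodules and 152, 196 and 62.4 in roots (22.7-fold, adjusted p = 0.00016). ACC oxidase BI970718.1_629, which releases ethylene, gave 1004, 693 and 803 in roots and 79.2, 52.6 and 42.5 in nodules (14.7-fold, adjusted p = 4.3e-05), and the oxidase homologue GMFL01-06-I22-R_468 was 24.5-fold higher in roots (adjusted p = 8.1e-06). No array of one organ crossed into the range of the other at these 3 probesets, as at nearly all called probesets. An auxin-induced protein, AW101401.1_578, gave 8751, 8445 and 6325 and 234, 133 and 149 (46.6-fold, adjusted p = 1e-05). The phytosulfokine precursor PSK3, of a small growth-promoting peptide, gave 244, 282 and 263 in nodules and 21, 13.9 and 7.77 in roots (BU764215.1_491, 20-fold, 2 root arrays above background, adjusted p = 7.7e-05).

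Of 78 transcription factors tested, 33 were higher in roots (42.3% against 35.9% of all described probesets) and 20 in nodules (25.6% against 32.1%, median 0.70, -1.29 under spike-in scaling). Members of the Myb family went both ways, 4 of 14 towards roots and 7 towards nodules. BE822415.1_435 gave 469, 1308 and 399 in roots and 12.9, 9.11 and 8.61 in nodules (62.4-fold, adjusted p = 6e-05), and BU547979.1_552, a homologue of an Arabidopsis Myb factor, gave 9833, 9477 and 8156 in nodules and 217, 103 and 168 in roots (58.7-fold, adjusted p = 1.1e-05). The HEX homeodomain factor BE660082.1_636 gave 3807, 2135 and 2038 in roots and 65, 55.4 and 68.1 in nodules (40.7-fold, adjusted p = 1.3e-05). A putative factor without a family, BM178541.1_281, was at least 19.6-fold higher in nodules (nodule signals 169.8, 155 and 219, adjusted p = 7.9e-05).

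**Figure D3:**
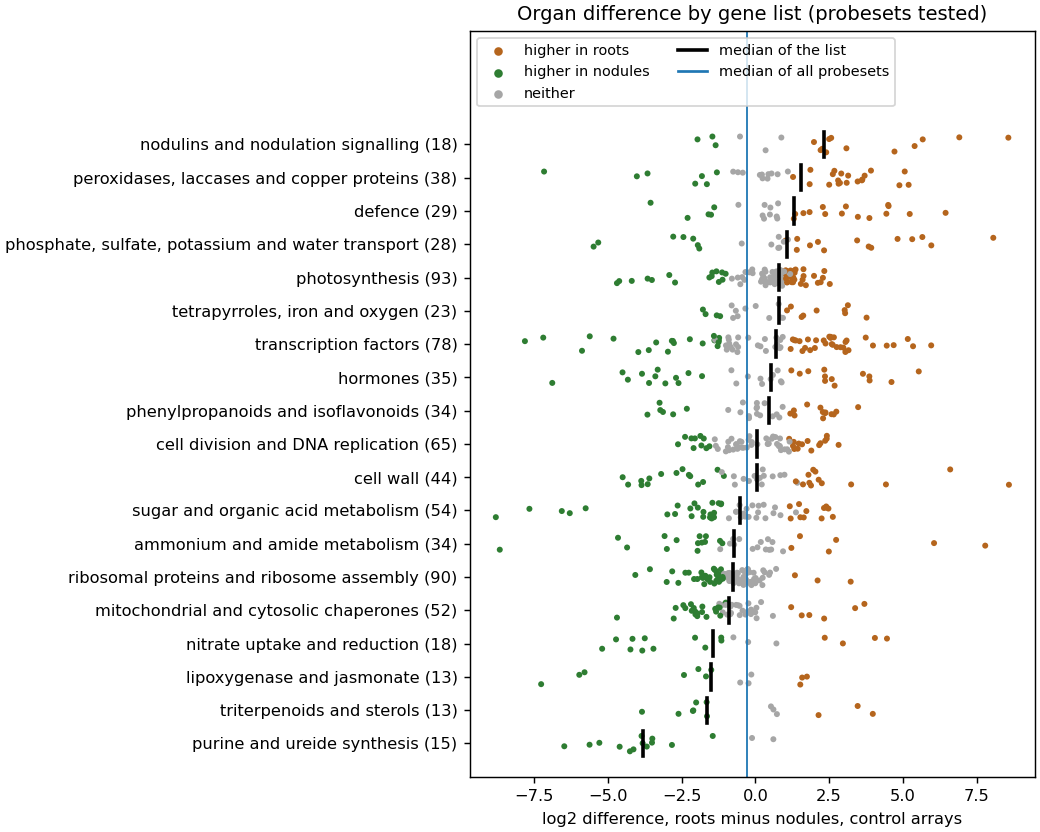
Log2 difference (roots minus nodules, horizontal axis) of each tested probeset in 19 gene lists, one row per list with the number tested in brackets, coloured by call at 2-fold, with a black bar at the list median and a blue line at the median of all probesets, -0.29. The median of the described probesets, from which the lists were drawn, was 0.06. The medians run from -3.82 for purine and ureide synthesis to 2.34 for nodulins, and under spike-in scaling all list medians but that of the nodulins lay below 0.

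Of 23 probesets for tetrapyrroles, iron and oxygen, 9 were higher in roots (39.1%, near the 35.9% of all described probesets) and 4 in nodules (17.4% against 32.1%, median 0.79, -1.19 under spike-in scaling). All 3 probesets of ferritin, the iron store, were higher in roots (median 3.05), for example GMFL01-14-B23-F_486 with 2674, 2249 and 2073 in roots and 293, 161 and 104 in nodules (3.77 ± 0.37, adjusted p = 0.00018), and GMFL01-03-E24-R_394 differed by 3.05 ± 0.39 (adjusted p = 0.00061). Nodule control 3 was the lowest array at both. Ferrochelatase CD401676.1_97, which inserts iron to form heme, was 8.17-fold higher in roots (adjusted p = 3.2e-05), and the thioredoxins AW349049.1_269 and CA936069.1_504 were 8.8-fold and 4.22-fold higher (adjusted p = 3.5e-05 and 0.00039). Alternative oxidase BU549189.1_619, which bypasses the last steps of mitochondrial respiration, was 3.43-fold higher in nodules (adjusted p = 0.0016).

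Genes of growth and protein synthesis varied with the root array. Of 65 cell division and DNA replication probesets, 15 were higher in roots and 10 in nodules, and the list's median stood 0.41, -0.78 and 0.29 from the nodule mean on root control arrays 1, 2 and 3, against -0.12, -0.56 and -0.19 for all probesets. Its median of 0.07 changed sign without root control 1 (-0.29), root control 3 (-0.04) or nodule control 1 (-0.03), with the slide as a block (-0.62) and under spike-in scaling (-1.92), and the counts were 23 and 10 without root control 2 and 9 and 22 with the slide as a block. Among its members tubulins, the units of microtubules, had 5 of 7 higher in roots and none in nodules (median 1.59, -0.40 under spike-in scaling), histones, which package DNA, 3 of 9 and none (median 0.74, -1.25 under spike-in scaling), and cyclins, which time the cell cycle, 3 of 13 and 1. Alpha tubulin BM567934.1_417 gave 2651, 2201 and 3032 in roots and 481, 571 and 467 in nodules (5.16-fold, adjusted p = 6.6e-05). Histone H2B probesets CA936078.1_452 and CD407697.1_41 were 5.35-fold and 7.08-fold higher in roots and the mitotic checkpoint kinase AW350332.1_572 5.37-fold (adjusted p = 0.00015, 0.00036 and 0.0014). MCM subunits of the replicative helicase had none of 10 higher in roots and 1 in nodules. DNA topoisomerase II BM143770.1_531 and a DNA polymerase theta homologue, BE330098.1_451, differed by -2.62 ± 0.57 and -2.38 ± 0.49 (adjusted p = 0.0061 and 0.005, with 2 root arrays above background), and the former by -1.94 without root control 2.

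Ribosomal and chaperone probesets were in the median lower on root control 2 than on the other root arrays. Of 90 ribosomal and ribosome assembly probesets 3 were higher in roots and 36 in nodules (median -0.75), or 3 and 23 without root control 2 and 2 and 61 with the slide as a block, and their medians on root arrays 1, 2 and 3 stood -0.24, -1.28 and -0.74 from the nodule mean. Organelle ribosomal protein S11 gave 13499, 13101 and 12205 in nodules and 1245, 531 and 689.8 in roots (BI426407.1_468, 16.8-fold, adjusted p = 6.2e-05). Organelle protein L45 GMFL01-15-O22-R_438 was 7.05-fold higher in nodules, pre-ribosome export protein CX705122.1_827 6.1-fold and nucleolar protein BE023124.1_316 8.03-fold with 1 root array above background (adjusted p = 0.00054, 0.00042 and 0.0033), the last by -3.61 (log2) without root control 1 and -2.40 without root control 2. The cytosolic ribosomal proteins S4 (CO982857.1_579, 1 root array above background) and L10 (CX709006.1_780) went in opposite directions, 11.9-fold towards nodules and 9.41-fold towards roots (adjusted p = 9.3e-05 and 6.7e-05).

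Chaperones, which fold proteins, had 6 of 52 probesets higher in roots and 21 in nodules (median -0.90), or 6 and 17 without root control 2 and 5 and 39 with the slide as a block, and their medians on the root arrays stood -0.31, -1.47 and -0.73 from the nodule mean. All 4 HSP90 probesets were higher in nodules (median -2.23), such as GMFL01-48-B19-R_493 with 7012, 6187 and 5979 in nodules and 2116, 619.6 and 1237 in roots (5.43-fold, adjusted p = 0.0023), and so were 4 of 7 mitochondrial chaperonins (median -1.80). DnaJ co-chaperones had 5 of 12 higher in roots (41.7%) and 4 in nodules (33.3%), against 35.9% and 32.1% of all described probesets. CO985554.1_743 was 25.8-fold, BQ081616.1_479 6.81-fold and CX705341.1_886 6.5-fold higher in nodules (adjusted p = 2.9e-05, 0.0013 and 0.0006). The DnaJ-like GMFL01-42-E21-R_454 gave 25551, 54539 and 23826 in roots and 3304, 2841 and 3108 in nodules (10.4-fold, adjusted p = 0.00017) and AW348681.1_298 of the same description was 13-fold higher in roots (adjusted p = 0.00024). Here root control 2 was the highest root array.

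Photosynthesis probesets, taken as markers of green tissue that neither organ should hold, gave signals in both organs. Of 95 probesets 93 passed the filter. Of these 93 tested, 29 were higher in roots (31.2% against 35.9% of all described probesets) and 15 in nodules (16.1% against 32.1%). The share higher in roots was thus no larger than that of all described probesets, while the share higher in nodules was smaller. The median was 0.80 (-1.18 under spike-in scaling), and the root arrays stood 0.06, 1.03 and 1.11 from the nodule mean. Root control 1, which differed from the other 2 here, was the only control root array on its slide. Chlorophyll a/b binding proteins of the antennae had 16 of 25 probesets higher in roots and 1 in nodules (median 1.22, -0.76 under spike-in scaling). Probesets whose description names a photosystem had 8 of 27 higher in roots (29.6%) and 1 in nodules (3.7%, median 0.82, -1.17 under spike-in scaling). The photosystem counts were 4 and 1 without root control 2 (median 0.46) and 19 and 0 with the slide as a block. Without root control 2 the whole list counted 20 and 13, and with the slide as a block 58 and 10. What part green tissue had in the other differences was not tested. The members named by the size of their difference were higher in nodules. A thylakoid lumenal 15 kDa protein gave 1155, 1459.8 and 1458 in nodules and 71.5, 36.7 and 54.3 in roots (AW761587.1_336, 25.8-fold, adjusted p = 1.9e-05), and GMFL01-36-G01-R_358 of the same description was 24.5-fold higher (adjusted p = 3.2e-05). A chlorophyll a/b binding protein precursor, BQ299288.1_373, was 18.2-fold, a cytochrome bf subunit, BI674546.1_428, 11.4-fold, and the Rubisco activase GMFL01-14-G09-R_157 7.55-fold higher in nodules (2, 1 and 3 root arrays above background, adjusted p = 1.7e-05, 0.00047 and 7.3e-05), and the Rubisco methyltransferase CO983071.1_697 at least 3.46-fold (adjusted p = 2.7e-05).

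The organ difference was set beside that of the 6 nitrate arrays, which share no sample with the control arrays but differ in nitrate. Slide and organ went together on them too, since the 3 root nitrate arrays lay on a slide without nodules. Slide also differed in part with nitrate: root control 2 and 3 and nodule nitrate 1 and 2 lay on another slide than the rest of their organ. On the nitrate arrays 7904 of 35654 probesets (22.2%) were higher in roots and 8433 (23.7%) in nodules. Of the probesets higher in control roots and tested again, 5508 of 7248 had the same call (76.0%) and 96.8% the same sign, and of those higher in control nodules 6965 of 10457 (66.6%) and 93.7%. Opposite calls numbered 124, of which 29 were higher in control roots and 95 in control nodules. Above 16-fold, 1114 of 1129 and 932 of 958 had the same call. The log2 differences of the 2 comparisons correlated at r = 0.893 over 35368 probesets, which share slides between the comparisons. In a fit of all 12 arrays, 5339 of 36425 probesets (14.7%) differed in their organ difference by more than 2-fold between control and nitrate arrays, and 1372 (3.77%) by more than 4-fold. Of the 133 named probesets tested on both, 73 passed at 2-fold, and the descriptions they were drawn from are of probesets chosen for a nitrate response.

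**Figure D4:**
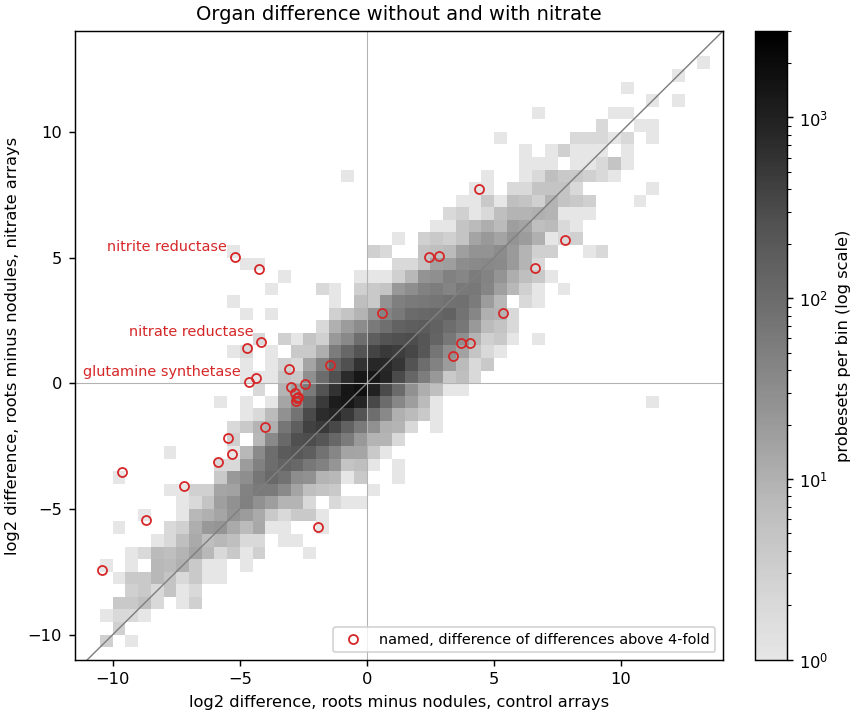
Log2 difference between roots and nodules on the nitrate arrays (vertical axis) against that on the control arrays (horizontal axis), with probesets per bin in grey on a log scale and the line of equal differences. Red circles are the 33 named probesets whose difference changed by more than 4-fold, and nitrate reductase and nitrite reductase lie left of and above 0, higher in nodules without nitrate and in roots with it.

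Nitrate reduction changed sides, purine synthesis did not. For nitrite reductase GMFL01-08-I05-R_317, the nodule arrays with nitrate gave 2580.2, 2597 and 2609, against 2032, 2263 and 1981 without it, while root arrays gave 57394, 58857 and 64425 with nitrate against 115, 96.7 and 123. The organ difference was -4.23 without and 4.53 with nitrate. For nitrate reductase GMFL01-21-N18-R_440 it was -4.16 and 1.63, with nodule signals of 27576, 24549 and 29912 on the nitrate arrays. For glutamine synthetase GMFL01-06-M21-R_347 it was -4.66 and 0.054. At these probesets the nodule arrays of both conditions lay close together and the control root arrays stood far below the other groups. NRT2 was higher in roots in both conditions, by 4.46 and 6.10 (GMFL01-19-H08-R_500), and pur3 and xanthine dehydrogenase were higher in nodules in both, by -5.62 and -4.35 (CX548867.1_764) and -3.50 and -3.00 (BE823821.1_552).

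**Figure D5:**
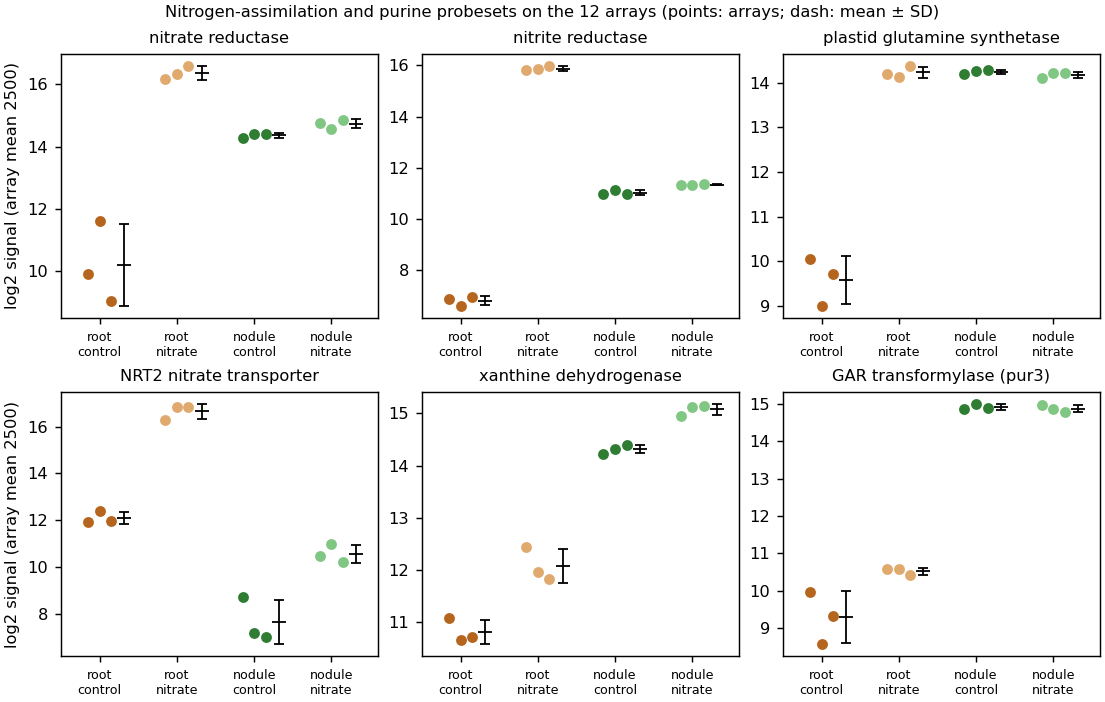
Log2 signals (scaled to an array mean of 2500) of 6 probesets on all 12 arrays by organ and nitrate, with a point per array and the mean ± SD of 3 arrays as a dash with bars, and a vertical axis of its own range for each probeset. For nitrate reductase, nitrite reductase and plastid glutamine synthetase the 3 control root arrays lie below all 9 others, and for xanthine dehydrogenase and GAR transformylase the 6 nodule arrays lie above the 6 root arrays.

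Several list medians changed sign on the nitrate arrays, which also differ in part in slide. Ribosomal proteins went from -0.75 to 1.15 and chaperones from -0.90 to 1.05, while photosynthesis went from 0.80 to -0.78 with 4 higher in roots and 38 in nodules. Nitrate uptake and reduction went from -1.43 to 1.51. Cell division went from 0.07, a median whose sign changed with the setting as given above, to 2.12. On the nitrate arrays 52 of its probesets were higher in roots and 1 in nodules. Purine synthesis (-3.82 and -2.59), lipoxygenase and jasmonate (-1.49 and -1.93), defence (1.31 and 1.43) and peroxidases and laccases (1.56 and 1.98) kept their sign. The last 2 of these lay below 0 on the control arrays under spike-in scaling.

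Slide and organ went together in the control arrays, and the nitrate arrays linked the slides thinly. The slide of the 3 nodule control arrays held only nodule nitrate 3 besides. Root control 2 and 3 shared a slide with nodule nitrate 1 and 2, and root control 1 lay with the root nitrate arrays. With the block, root control 1 therefore drops out of the organ difference. The shift between slides rests on nodule nitrate 3 against nodule nitrate 1 and 2. A slide effect cannot be told apart from a deviation of nodule nitrate 3 alone. With the slide as a fixed block in a fit of all 12 arrays, 6624 of 36145 probesets (18.3%) were higher in control roots and 11669 (32.3%) in control nodules. Of the calls without the block, 5971 of 7381 and 9756 of 10805 were also called, with 1 and 0 opposite calls. Above 16-fold, 1116 of 1137 and 951 of 964 were also called. The purine list counted 13 of 15 higher in nodules with the block as without it, and the nodulins counted 12 higher in roots. The difference of 51 of the 135 named probesets moved by over 1.5-fold with the block, 47 of them towards nodules and 4 towards roots, with a median shift of -0.37. The largest shift towards roots was at CX702968.1_831, from 13.19 to 16.54. Lectin Le2 GMFL01-20-M10-R_482, with 1 nodule array above background, moved from 4.44 to 7.16. The largest shift towards nodules was at proline-rich GMFL01-29-C07-R_220, from -4.31 to -6.79. The transporter BE473599.1_257, which was not called, changed sign from 0.61 to -0.24.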

How the data were processed

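RNA of 12 pooled samples was hybridised to 1-colour soybean arrays, and the 6 control arrays were compared. The deposited scanner files, written by Feature Extraction (10.5.1.1 per the file headers, 9.5.1 per the labels), hold the processed signal, an intensity after background subtraction and spatial and multiplicative detrending by the authors, without scaling between arrays. Per the labels, the authors' value table holds the same intensity values, and all 512976 were equal within 1e-04 relative. Control spots and 54 outlier spots of the control arrays were left out, no spot was saturated, each array was scaled to a mean of 2500 as in the study's methods, and log2 signals were fitted with limma 3.58.1 (R 4.3.3, lmFit and eBayes, 3 arrays against 3) on probesets well above background throughout the 3 arrays of either organ. A call needs a Benjamini-Hochberg adjusted p under 0.05 over all probesets tested and more than 2-fold. A replicate pools 3 plants, and the number of arrays limits the precision. The fit was tested on simulated data. Tables and plots used Python 3.11.15, pandas 2.3.3, scipy 1.17.1 and matplotlib 3.10.9.

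Named probesets are the 2 per organ with the largest differences whose groups did not overlap, the 12 per organ with a described function, up to 6 called members of each of 19 lists, and the purine list whatever the call. The members and lists were chosen with earlier results of these data known. Other scalings, background corrections, filters, tests and blocks were tried, as was leaving out each array. The authors' columns of comparisons were not used. The probesets could not be matched by accession to the gene table used here, so no gene model or position is given.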

Additional observations from a re-analysis of the deposited data

Results flagged for a closer look

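In a fit of all 12 arrays, 33 of the 133 named probesets tested on both sets had an organ difference that changed by more than 4-fold between control and nitrate arrays (limma, interaction term, adjusted p from 1.4e-09 to 0.041 over all probesets), and 73 changed by more than 2-fold, against 14.7% of all probesets. The descriptions come from probesets that nitrate changed on these same arrays, so this share is not independent evidence. Slide differed in part together with nitrate within each organ, and slide and nitrate cannot be fully told apart in these values. Values below are the control difference minus the nitrate difference, on the log2 scale, where a negative value means that roots stood lower against nodules without nitrate.

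Nitrogen assimilation and the OCS-element binding factor AW705644.1_442 (-6.09) gave the 8 most negative values. The others were -10.19 for nitrite reductase BG155089.1_555, -8.77 for nitrite reductase GMFL01-08-I05-R_317, -6.13 and -5.79 for nitrate reductases BU927103.1_508 and GMFL01-21-N18-R_440, and -4.71, -4.55 and -3.63 for the plastid glutamine synthetases GMFL01-06-M21-R_347, GMFL01-14-D20-F_759 and GMFL01-36-I09-R_352. Of these 7, the 2 nitrite and 2 nitrate reductases were called in opposite directions on the 2 sets of arrays. In purine metabolism, the transporter BE473599.1_257 gave -2.19 and the nucleotidase AI960030.1_560 gave -2.15.

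Other regulators gave -3.12 for the GATA factor BE823562.1_522, -2.73 for the Myb factor BU547979.1_552 and -2.58 for the mitotic checkpoint kinase AW350332.1_572, and the HEX factor BE660082.1_636 gave 2.57. Chaperones and the ribosome gave -2.43 for HSP90 GMFL01-48-B19-R_493, -2.16 and -2.15 for the DnaJ chaperones BQ081616.1_479 and CX705341.1_886, -2.84 for nucleolar protein BE023124.1_316 and -2.45 for ribosomal protein L45 GMFL01-15-O22-R_438, while DnaJ-like GMFL01-42-E21-R_454 and AW348681.1_298 gave 2.32 and 2.09. The remaining negative values were -3.29 for aquaporin BM885167.1_466, -3.28 for pectate lyase BF426188.1_388, -3.26 for the cystathionine beta-synthase relative CX708923.1_569, -2.99 for CO982359.1_617 without a description, -2.51 for Pap3 GMFL01-41-C15-R_491, -2.29 for peroxidase AW101847.1_324, -2.25 for histone H2B CD407697.1_41 and -2.07 for chalcone isomerase 2 AW733840.1_557. The remaining positive values were 3.78 for lipoxygenase-1 CK768357.1_636, 2.46 for the nitrate and chloride transporter CA852364.1_395, 2.08 for asparaginase BE658128.1_628 and 2.01 for proline-rich CA784637.1_592.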

How the results depend on the processing

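The counts of probesets higher in roots and in nodules stayed within 1.5 times those reported except under 4 settings. With limma's treat against 2-fold they were 4777 and 5722. Under spike-in scaling, added after seeing the data, they were 2084 and 28135 above 2-fold, 1154 and 21038 above 4-fold and 268 and 4785 above 16-fold. With normexp background correction they were 2240 in nodules above 4-fold and 468 and 387 above 16-fold, and on probesets above background on all 6 arrays, which are fewer, 3102, 671 and 508. The organ with more calls also changed with the setting. Above 4-fold roots had more with quantile normalization (4427 against 4164), with normexp (2793 against 2240) and on the nitrate arrays (3949 against 3876). The causes of the other shifts were not tested. The median of -0.29 was -0.12 with 75th percentile scaling, -0.14 with quantile normalization, -0.090 with normexp, -0.13 without a filter, -0.081 on the nitrate arrays, -2.28 under spike-in scaling and -0.11 with 75th percentile scaling and root control 2 left out, also added after seeing the data, and leaving out 1 array gave -0.36 to -0.15. Leaving out 1 array gave 6992 to 8118 probesets higher in roots and 9326 to 12075 in nodules. A replicate block gave 7478 and 11010, and same-numbered arrays did not deviate together (r = 0.006, -0.099 and 0.136), so the numbers were not taken as pairs. The methods' t-test gave 6462 and 10393 before adjustment and 5742 and 10249 after it.

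Of the 135 named probesets, every one kept its side of the threshold with the replicate block, with quantile normalization or 75th percentile scaling, in a fit of all 12 arrays and where dim probesets were kept. Calls were lost by 11 with the adjusted t-test, 8 with normexp, 6 with treat, 4 with the slide as a random block, 3 with array weights by organ (added after seeing the data) and 2 with the slide as a fixed block. Another 5 were lost with the unadjusted t-test, 8 under spike-in scaling and 10 on the nitrate arrays, and the last 2 settings each gained 2. On the nitrate arrays the sign was reversed at BG155089.1_555 (5.00), GMFL01-08-I05-R_317 (4.53), BU927103.1_508 (1.41), GMFL01-21-N18-R_440 (1.63), GMFL01-06-M21-R_347 (0.054), GMFL01-14-D20-F_759 (0.21), GMFL01-36-I09-R_352 (0.56) and AI960030.1_560 (0.71), and under spike-in scaling at CX701945.1_756 (-0.24). Signal over background limits 43 of the named probesets, whose dim organ was not above background on every array.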

Other observations

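Some further described families are given here, of which the glutathione S-transferases are in none of the gene lists. Of 6 glutathione S-transferase probesets, for enzymes that attach glutathione to toxic compounds, 3 were higher in control roots and 1 in control nodules, with differences from -2.37 to 5.60 and a median of 1.70 (-0.28 under spike-in scaling). Both arg2 probesets, for an auxin-regulated protein of Vigna, were higher in nodules, at -3.60 and -3.05. Of 4 probesets for dehydration-responsive element binding factors, 3 were higher in roots and 1 in nodules, from -7.81 to 4.46. Of 6 invertase probesets, for enzymes that split sucrose, 2 were higher in roots and 1 in nodules, from -1.77 to 2.48. These families were chosen after their values were seen.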
